A study of Mus musculus with 6 samples.

Results

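The immunity-related GTPases (Irg) are a family of small antimicrobial GTP-binding proteins of the mouse. The family was taken as 7 genes by symbol: Irgm1, Irgm2, Igtp, Ifi47, Tgtp1, Tgtp2 and Iigp1. All 7 were found among the 23992 gene symbols of the table, and where a symbol had several transcript rows the row with the highest total count was used. Their RNA was counted in bulk in 6 libraries of mouse regulatory T cells (Treg cells), a suppressive class of CD4 T cells defined by Foxp3, 3 labelled KO and 3 labelled WT. KO stands for Foxp3YFP-Cre/Y Crlf2fl/fl male mice on a CD45.2 background and WT for Foxp3YFP-Cre/Y males on the same background. Both groups therefore carry the Cre, which is fused to yellow fluorescent protein and driven by Foxp3, so deletion is aimed at Foxp3-expressing cells only. Crlf2 encodes the subunit of the TSLP receptor that is specific for this cytokine. By the sample labels, cells were sorted as live, CD4+ and YFP+ from pooled spleen and lymph nodes. The name of the deposited table mentions lung, and lung epithelial markers took 0.248% to 7.87% of the counts per library. Which tissue the cells came from was not tested. The description line of each sample gives the strain of the other group, and the grouping follows titles and genotype tags. No age is given. Nothing says that the replicates are separate animals, so each p-value reflects spread among these libraries, which may be technical.

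Irg genes are switched on by interferons, chiefly interferon gamma, through transcription factors that include IRF1. The proteins fall into a regulatory class and an effector class. The regulatory members, encoded by Irgm1, Irgm2 and Igtp, sit on the cell's own membranes and keep the effectors inactive there. The effector members, encoded by Tgtp1, Tgtp2, Ifi47 and Iigp1, load onto the vacuoles of intracellular parasites such as Toxoplasma and help to break them. Irgm1 is also known for a role in autophagy and in the survival of dividing T cells.

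The family sits in 3 places of the genome, going by the GENCODE M21 annotation of GRCm38, the assembly that mm10 is the browser name of. Irgm1 (chr11:48861968-48871683, minus strand), Tgtp1 (chr11:48985327-48994172, minus), Tgtp2 (chr11:49057194-49064206, minus) and Ifi47 (chr11:49076587-49096974, plus) form one cluster. Igtp (chr11:58199556-58207591, plus) and Irgm2 (chr11:58199618-58222782, plus) form another on the same chromosome. Their GENCODE spans overlap, whereas the RefSeq start of Irgm2 lies past the end of Igtp. Iigp1 lies apart on another chromosome. All 7 are annotated as protein coding.

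Promoter sequence was available from RefSeq for the 6 genes on chromosome 11, as 250 bases before and 50 bases after the gene start in build GRCm38.p6. The stretches below are shown because they hold the 2 interferon-type elements for which the promoters were searched on both strands. One is the interferon-stimulated response element (ISRE), searched as GAAANNGAAA, which binds IRF proteins. The other is the gamma-activated site (GAS), searched as TTCNNNGAA, an element of genes that respond to interferon gamma. Capitals mark matches to either motif, read 5′ to 3′ along the gene's own strand.
Igtp, chr11:58199494-58199543, plus: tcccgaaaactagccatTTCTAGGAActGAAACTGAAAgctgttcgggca
Irgm2, chr11:58214885-58214934, plus: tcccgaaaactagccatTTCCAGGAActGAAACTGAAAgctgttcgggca
Tgtp1, chr11:48992302-48992351, minus: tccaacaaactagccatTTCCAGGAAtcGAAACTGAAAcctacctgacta
Tgtp2, chr11:49064261-49064310, minus: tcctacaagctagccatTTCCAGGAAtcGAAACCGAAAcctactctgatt
Irgm1, chr11:48871430-48871459, minus: ctgtttcaaGAAATAGAAACCGAAActgat

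Igtp, Irgm2, Tgtp1 and Tgtp2 each held 1 GAS-type and 1 ISRE-type match in the same order and 2 bases apart, without overlap. The ISRE-type match began 34 bases before the gene start in Igtp, 64 in Irgm2, 77 in Tgtp1 and 70 in Tgtp2. Irgm1 held 2 overlapping ISRE-type matches, the nearer of which began 24 bases before the start, and no match to the GAS letters. The Ifi47 window held neither. These distances hold for the RefSeq starts only. In GENCODE the Irgm1 stretch overlaps an exon of Irgm1, and the Tgtp1 and Irgm2 stretches lie inside the spans of their genes. Of the 32851 promoters of the table, 3.44% held the ISRE letters, 8.30% the GAS letters and 0.454% both, against 5, 4 and 4 of the 6 Irg promoters. The promoters of Irgm2 and Igtp were 92.1% identical over 265 aligned bases, and those of Tgtp1 and Tgtp2 were 80.5% identical over 272. These matches describe letters, not measured binding.

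**Figure D1:**
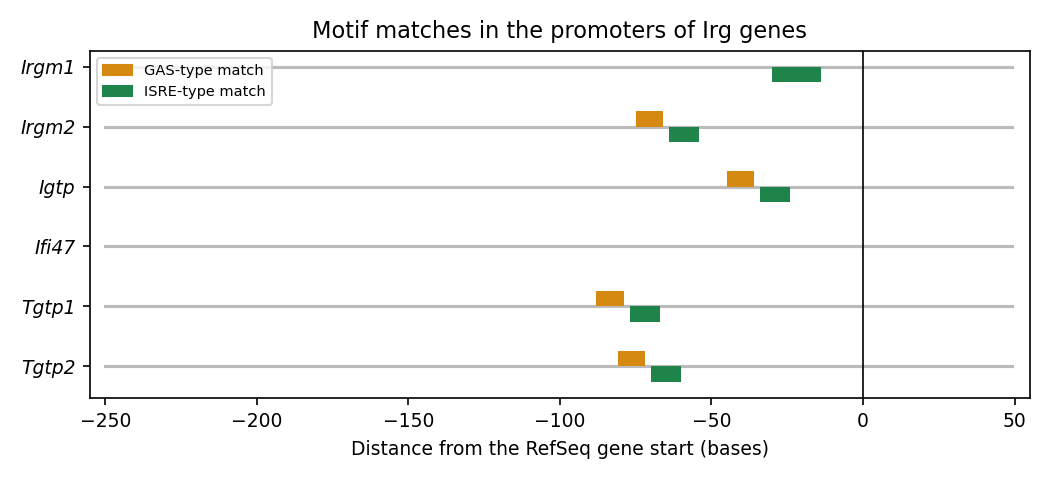
Positions of GAS-type (orange) and ISRE-type (green) matches in 6 Irg promoters, with the distance from the RefSeq gene start in bases on the x axis and 1 grey line per gene. The green block of Irgm1 is 2 overlapping matches, Igtp, Irgm2, Tgtp1 and Tgtp2 carry the pair of motifs 2 bases apart, and the Ifi47 line is empty.

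Before any comparison, the libraries differed in ways that touch the results. Totals ran from 9649588 to 18352405 counts in KO and from 1439740 (replicate 2) to 12180562 in WT. Crlf2 was at 6.44 ± 2.76 CPM (counts scaled to library size) in KO cells and 115 ± 27.7 CPM in WT cells (SD, n = 3 each), as titles and genotype tags would have it. All 8 Treg markers were detected in every library and summed to 0.295% to 0.314% of the counts in KO and 0.136% to 0.308% in WT. The 12 pan-T cell markers in the table summed to 0.751% to 0.842% in KO and 0.410% to 0.715% in WT, WT replicate 3 being the lowest of both lists. All 12 lung epithelial markers had reads, 0.248% to 2.02% of the counts in KO and 1.75% to 7.87% in WT. The 10 macrophage and monocyte markers in the table took 0.259% to 0.280% in KO and 0.0373% to 0.715% in WT. Erythroid markers (7 in the table) took 0.133% to 0.195% in KO, against 0.117%, 0.468% and 9.88% in WT replicates 1 to 3. Markers of B cells, NK and CD8 T cells, neutrophils, dendritic cells, and endothelium and fibroblasts took at most 0.0397% as lists in any library. No marker in the table was at 0 throughout. Counts of every pair of libraries differed by more than sampling noise (chi-square over its degrees of freedom at least 12.7).

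Irg transcripts were lower in KO than in WT Treg cells for all 7 genes, and for 6 of them, all but Irgm2, the fall passed the test. Summed over the family, CPM values were 479, 702 and 419.9 in KO replicates 1 to 3, and 1752, 1980.2 and 1284 in WT replicates 1 to 3. The groups did not overlap, and the KO mean was 3.13-fold lower (534 ± 149 in KO and 1672 ± 355 in WT, SD, n = 3 each). An exact two-sided permutation test gave p = 0.1, the smallest that 3 libraries against 3 can give. Counting the near-identical Tgtp1 and Tgtp2 once, the sums were 482 ± 128 in KO and 1445 ± 309 in WT. In bulk RNA, fewer cells of a type and less RNA per cell cannot be told apart.

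Single genes were compared with edgeR's quasi-likelihood test, fitted to all 12720 genes that passed a filter on low counts, and called at an adjusted p (Benjamini-Hochberg over all of them) under 0.05. All 7 Irg genes passed that filter. With 6 of 7 Irg genes called lower, 0.983% of all tested genes were called lower and 0.755% higher. The Irg median log2 fold change, KO over WT, was -1.53, beside -0.044 for all tested genes. The ranges of KO and WT libraries were apart for each of the 7, which held in the lower direction for 11.5% of all tested genes. The members were picked with earlier results of these libraries known, so these counts describe the list and do not test it.

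**Figure D2:**
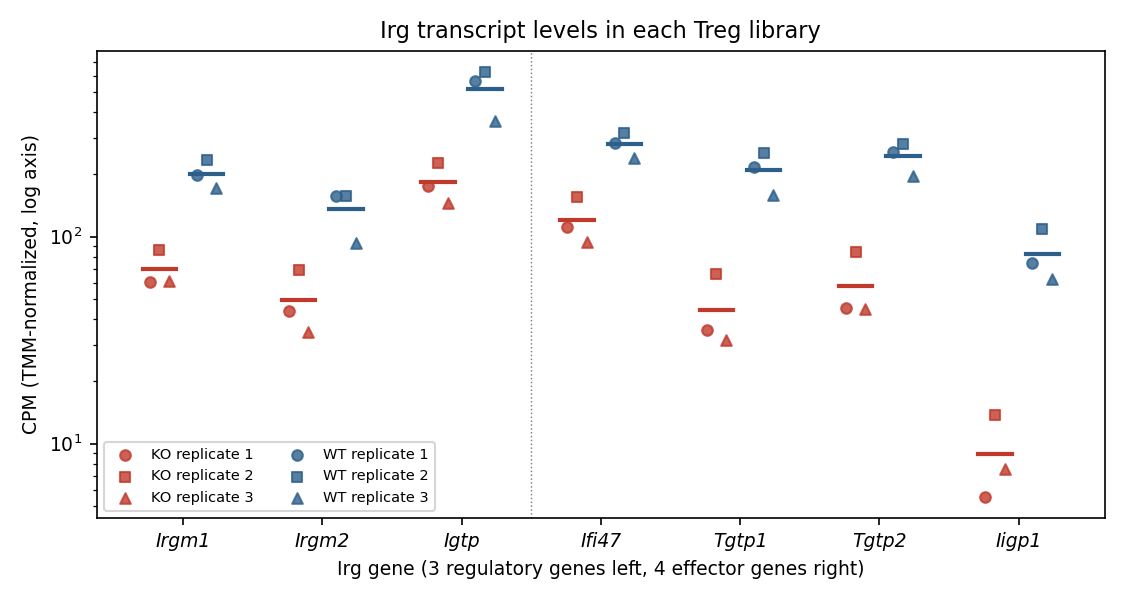
CPM of each Irg gene in each library on a log axis, KO (red) left of WT (blue), with a symbol per replicate and a line at the group mean. For every gene the 3 KO symbols lie below the 3 WT symbols, KO replicate 2 is the highest KO library and WT replicate 3 the lowest WT library.

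Among the regulatory genes, Igtp was the most abundant. It had 177, 227 and 145 CPM in KO replicates 1 to 3, and 565, 625 and 363 CPM in WT replicates 1 to 3. The KO libraries all lay below the lowest WT library, replicate 3, and the log2 fold change was -1.50 (SE of 0.23; adjusted p = 0.0266 by edgeR).

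Irgm1, the member with the autophagy role, had 60.7, 86.3 and 61.4 CPM in KO, and 198, 236 and 171 CPM in WT replicates 1 to 3. The KO values were close together apart from replicate 2, and none came near the WT range. It fell by 1.53 on the log2 scale (SE of 0.19; adjusted p = 0.0133 by edgeR).

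Irgm2, a Golgi-associated regulator, had 43.9, 69.2 and 34.7 CPM in KO, and 158, 158 and 93.1 CPM in WT replicates 1 to 3. The groups again did not overlap, but WT replicate 3 stood nearer to the highest KO library than to the other WT libraries. The log2 fold change of -1.46 (SE 0.30) narrowly missed the threshold (adjusted p = 0.0561 by edgeR), so Irgm2 was not called.

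The effector genes spanned the smallest and the largest differences of the family. Ifi47, which encodes the effector also called Irgd, had 111, 155 and 94.8 CPM in KO, and 284, 316 and 239 CPM in WT replicates 1 to 3. Its log2 fold change of -1.21 (SE of 0.20; adjusted p = 0.0307 by edgeR) was the smallest of the 7. Ifi47 has 3 transcript rows in the table, with counts close to one another, 2106 to 2120 reads in WT replicate 1.

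Iigp1 (chr18:60376027-60392634, plus strand) encodes Irga6, an effector that loads onto the vacuole of Toxoplasma, and had the largest difference. It had 57, 172 and 144 reads (5.55, 13.8 and 7.52 CPM) in KO replicates 1 to 3, and 559, 160 and 657 reads (74.8, 109 and 62.2 CPM) in WT replicates 1 to 3. The highest KO library thus lay far under the lowest WT library. The mean level was 9.18-fold lower in KO, with a log2 fold change of -3.18 (SE of 0.37; adjusted p = 0.0119 by edgeR).

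Tgtp1 and Tgtp2 encode near-identical copies of the effector Irgb6, and reads of one may be counted for the other. Of all 100-base stretches of the Tgtp1 transcript 80.0% also occur in Tgtp2 transcripts, and of those of Tgtp2 80.4% occur in Tgtp1. The counts were not identical: the ratio of Tgtp1 to Tgtp2, per transcript length, was 0.785, 0.789 and 0.709 for KO replicates 1 to 3, and 0.851, 0.900 and 0.814 for the WT replicates. Tgtp1 had 35.5, 66.1 and 31.5 CPM in KO, against 217, 253 and 159 CPM in the WT replicates 1, 2 and 3 (log2 fold change -2.24 with an SE of 0.31; adjusted p = 0.0203 by edgeR). Tgtp2 had 45.4, 84.0 and 44.6 CPM in KO, against 256, 282 and 196 CPM in the WT replicates 1, 2 and 3 (log2 fold change -2.07 with an SE of 0.27; adjusted p = 0.0162 by edgeR). The pair should be read as 1 measurement, and 5 of 6 features were called lower when it was merged before the fit. The other genes shared less sequence: 5.67% of the 100-base stretches of Igtp occur in Irgm2, and for Irgm1 and Iigp1 no such stretch was found in another gene.

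The calls depended on single libraries, whereas the direction did not. No member was called when KO replicate 1, KO replicate 3 or the shallow WT replicate 2 was left out, or when the lung epithelial share was a covariate, and 1 (Iigp1) without WT replicate 1, while all 7 were called without KO replicate 2 or WT replicate 3. In each of these fits all 7 log2 fold changes stayed negative with an unadjusted p under 0.05, which 9.13% of all genes had in the lower direction with 6 libraries. With that covariate the log2 fold changes ran from -3.09 to -1.03, and with the macrophage share, under which all 7 were called, from -3.04 to -1.13.

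**Figure D3:**
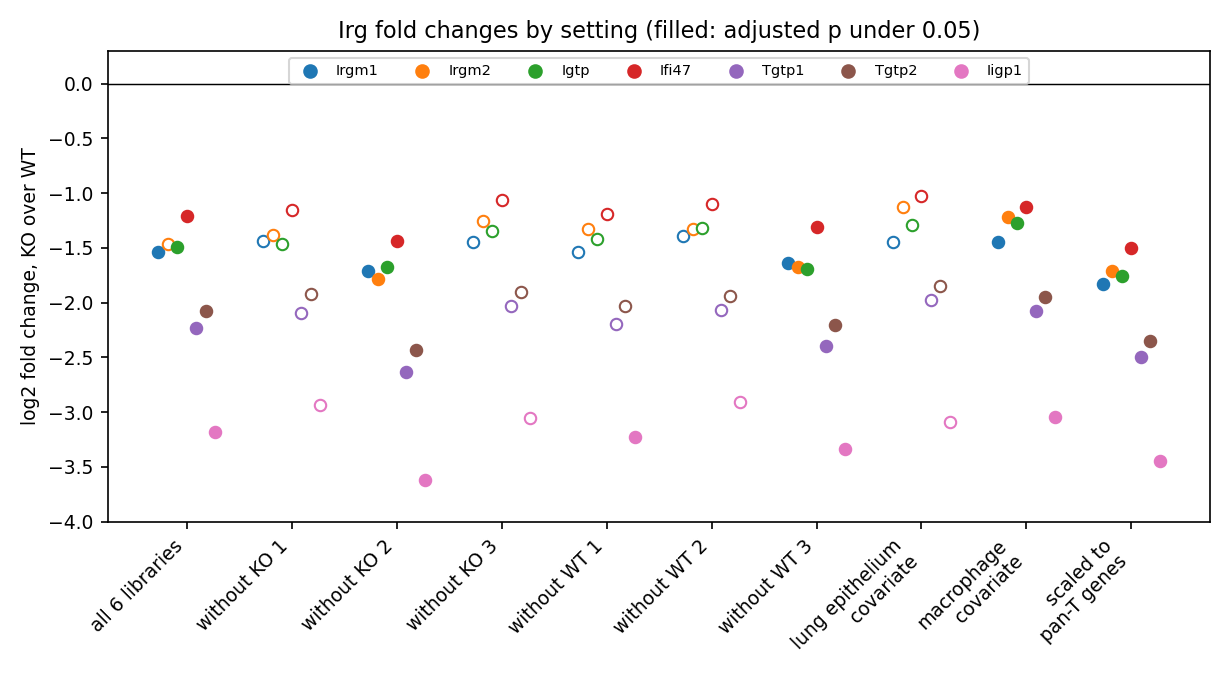
Log2 fold change (KO over WT) of each Irg gene in the fit of all 6 libraries, with each library left out, with 2 marker shares as covariates and scaled to pan-T genes, filled where the adjusted p was under 0.05. Points of all genes stay below 0 in every column, Iigp1 lowest and Ifi47 highest, while filled points are absent where KO replicates 1 or 3 or WT replicate 2 were left out and in the lung epithelium column.

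Levels were compared between genes as CPM per kilobase of transcript. In both groups the order was Igtp, Ifi47, Irgm1, Tgtp2, Tgtp1, Irgm2 and Iigp1 from high to low. The same order was seen in 5 of 6 libraries, WT replicate 1 having Tgtp2 above Irgm1. Igtp was at 90.5 ± 20.4 CPM per kilobase in KO and 256 ± 67.9 in WT, and Ifi47 at 62.2 ± 16.2 in KO and 144 ± 19.9 in WT (SD, n = 3 each). At the other end Iigp1 was at 2.86 ± 1.37 CPM per kilobase in KO and 26.3 ± 7.85 in WT. Between neighbours, Tgtp1 (15.8 ± 6.73 in KO, 74.7 ± 16.9 in WT), Tgtp2 (20.6 ± 8.0 in KO, 86.9 ± 15.6 in WT) and, in KO, Irgm2 (14.0 ± 5.08, against 38.8 ± 10.6 in WT) lay within one another's spread. In WT, Irgm1 (31.2 ± 6.54 in KO, 90.6 ± 14.6 in WT) was also within the spread of Tgtp2. Per kilobase, Igtp ranked at the 92.3rd percentile of tested genes in KO and at the 97.2nd in WT, and Iigp1 at the 27.8th in KO and at the 74.6th in WT.

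The makeup of the Irg counts was compared next. As a share of the length-scaled Irg counts, which does not depend on library scaling, Iigp1 made up 0.826%, 1.43% and 1.28% in KO, against 3.19%, 4.13% and 3.60% in WT replicates 1 to 3. Tgtp1 made up 6.5% ± 0.978 in KO and 10.4% ± 0.198 in WT, and Tgtp2 8.53% ± 1.09 in KO and 12.2% ± 0.407 in WT (SD, n = 3 each). Shares sum to the whole, so a smaller share of one gene is a larger one of the others. The Ifi47 share was 26.2% ± 0.381 in KO and 20.4% ± 1.74 in WT. For these 4 genes the groups did not overlap, and the exact permutation test gave p = 0.1 each, the smallest possible, or 0.175 adjusted over the 7 shares. Shares of Irgm1, Irgm2 and Igtp overlapped between groups (exact p = 0.5, 0.5 and 0.3).

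**Figure D4:**
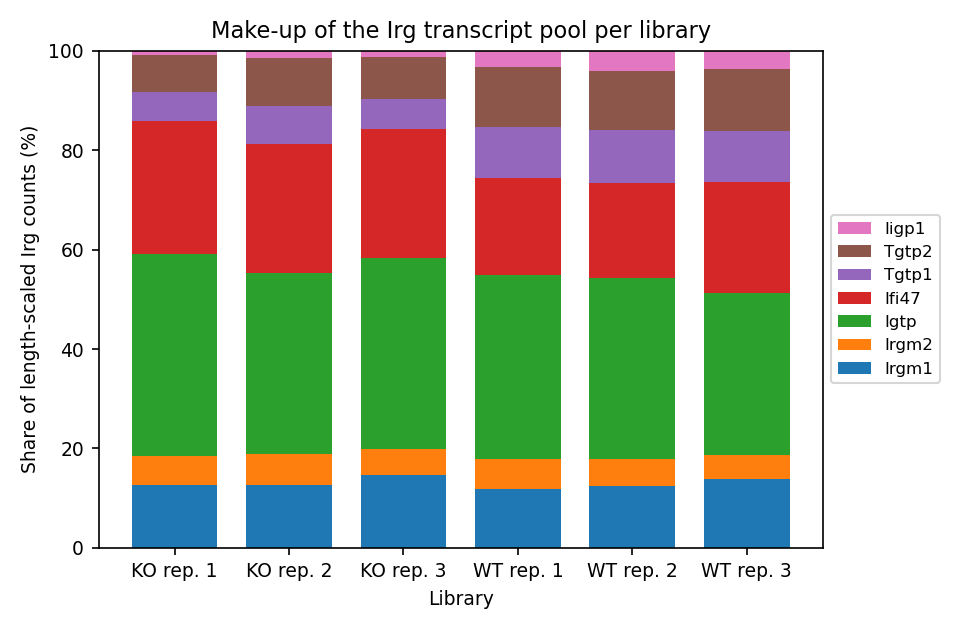
Share of each Irg gene in the length-scaled Irg counts of each library, in percent, with the KO libraries left and the WT libraries right. The Iigp1 segment at the top is 0.826% to 1.43% of the bar in KO and 3.19% to 4.13% in WT, while the red Ifi47 segment is larger in KO.

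The regulatory genes were also set against the effectors as a group, a difference that did not hold with the Tgtp pair counted once. The ratio of summed length-scaled counts, regulatory over effector, was 1.45, 1.24 and 1.39 in KO, against 1.22, 1.18 and 1.05 in WT replicates 1 to 3. The lowest KO library and the highest WT library were almost level, and the difference in log2 ratio was 0.24 (exact permutation p = 0.1, again the smallest possible). It was 0.12 with Tgtp1 and Tgtp2 counted once, with overlapping groups (exact permutation p = 0.3).

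Of 10 further Irg-related loci that were listed, 8 were tested. Beside 0.983% of all tested genes called lower, 1 of these 8 was called lower. This was Gm12250, the locus of the effector Irgb10, beside Igtp at chr11:58183843-58190198 in RefSeq GRCm38.p6, which gives the counted transcript, whereas GENCODE M21 has a shorter processed pseudogene of that name there. It averaged 34.4 ± 8.72 CPM in KO cells and 142 ± 52.2 CPM in WT cells (SD, n = 3 each; log2 fold change -2.03 with an SE of 0.32; adjusted p = 0.0271 by edgeR). Of the other 7, 6 had an unadjusted p under 0.05 in the lower direction without being called, beside 9.13% of all tested genes. Their log2 fold changes ran from -2.16 (Gm4951) to -0.50 (9930111J21Rik1). Some share sequence with members, Gm12185 holding 4.55% of the 100-base stretches of Tgtp1 and Gm4951 2.83% of the 50-base stretches of Iigp1. Irgq, a relative that is not known as interferon-induced, averaged 25 ± 6.5 CPM in KO cells and 21.9 ± 5.13 CPM in WT cells, with a log2 fold change of 0.22 (SE of 0.28; adjusted p = 0.758 by edgeR), which became -0.091 when scaled to pan-T genes.

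**Figure D5:**
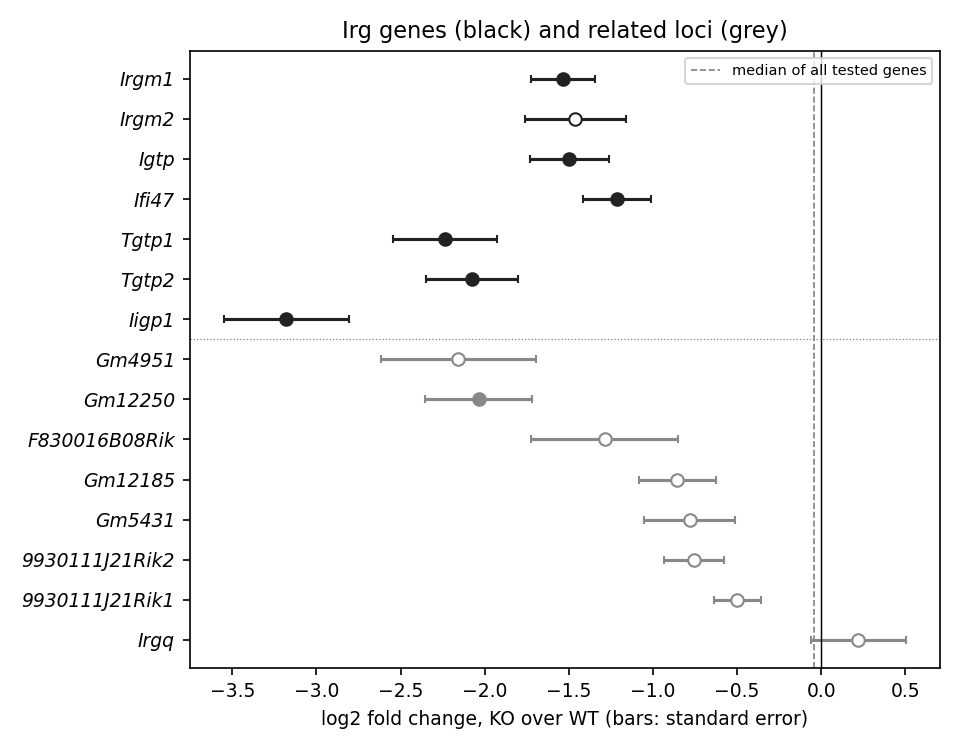
Log2 fold changes (KO over WT) with standard errors for the 7 Irg genes (black, top) and 8 related loci (grey), filled where the edgeR adjusted p was under 0.05, with the median of all tested genes dashed. The 7 Irg genes lie between -3.18 and -1.21, and Irgq is the one locus right of 0.

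Other genes near the clusters were read as a positional comparison. Within 100 kb of a member, the median log2 fold change of 10 tested genes outside the family was -0.0091. While 0.983% of all tested genes were called lower and 0.755% higher, 1 of these 10 was called, in the lower direction. This was Olfr56, an olfactory receptor gene next to Ifi47, with 24.5 ± 3.01 CPM in KO cells and 52.1 ± 8.80 CPM in WT cells (log2 fold change -1.09 with an SE of 0.20; adjusted p = 0.0425 by edgeR). Its GENCODE transcripts hold 3.60% of the 50-base stretches of Ifi47 and 0.566% of the 100-base ones. Whether reads of Ifi47 were counted for Olfr56 was not tested. Psme2b, which adjoins 9930111J21Rik1, had a log2 fold change of -0.48 (SE of 0.16; adjusted p = 0.197 by edgeR).

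Among genes of interferon signalling, no receptor gene was called while 2 transcription factors were called lower. Of 8 tested interferon ligand, receptor and kinase genes edgeR called none, and the median log2 fold change was 0.21. An unadjusted p under 0.05 was found for 3 of them, all in the higher direction, as for 857 of all 12720 tested genes. The groups did not overlap for 5 of the 8, all higher in KO. Of all tested genes 2796 had groups apart in either direction, 1469 of them lower in KO. Ifnar1, a chain of the type I interferon receptor, averaged 197 ± 13.8 CPM in KO cells and 152 ± 8.39 CPM in WT cells, and Tyk2, a kinase of that receptor, 177 ± 14.9 CPM in KO cells and 130.2 ± 20.2 CPM in WT cells (SD, n = 3 each; edgeR adjusted p = 0.174 and 0.185). Scaled to pan-T genes, their log2 fold changes were 0.050 and 0.15. Of 7 tested interferon transcription factors 2 were called lower, and all 7 had negative log2 fold changes (median -0.76). In the lower direction 5 had an unadjusted p under 0.05, and for 6 the groups did not overlap. Of all tested genes 0.983% were called lower, 9.13% had such a p and 11.5% had such groups. Stat2, a subunit of the factor that acts downstream of type I interferon, averaged 84.6 ± 9.03 CPM in KO cells and 206 ± 31.8 CPM in WT cells (log2 fold change -1.28 with an SE of 0.16; adjusted p = 0.0131 by edgeR). Irf7, a factor that amplifies type I interferon production, averaged 116 ± 55.4 CPM in KO cells and 450.2 ± 102 CPM in WT cells (log2 fold change -1.96 with an SE of 0.34; adjusted p = 0.0449 by edgeR). The Irf7 call was also lost with no low-count filter (adjusted p = 0.0574 by edgeR) and with transcript rows summed (0.0561), its adjusted p running from 4.74e-09 (DESeq2) to 0.215 (lung covariate) over all alternatives. Of 7 negative regulators of interferon signalling 2 were called lower, Socs1 (log2 fold change -1.12, SE 0.18) and Socs3 (-0.68, SE 0.13). Socs3 was at the threshold (adjusted p = 0.0497 by edgeR), and its call was lost in further alternatives that included DESeq2 size factors (0.0502) and the replicate block (0.135), with adjusted p from 0.000147 (DESeq2) to 0.373 (lung covariate) over all alternatives.

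Among genes for the proteins that Irg GTPases work with, none of the tested ones was called. Of all tested genes 0.983% were called lower and 0.755% higher, so lists this short would hold few calls or none at those shares. An unadjusted p under 0.05 was found for 9.13% of all tested genes in the lower direction and 857 of 12720 in the higher. Of 14 autophagy genes none was called by edgeR and 1 had an unadjusted p under 0.05, with a median log2 fold change of -0.037. The list holds genes of the conjugation machinery that effector Irg proteins need to reach the vacuole, and also other autophagy genes. Map1lc3b, which encodes a lipid-conjugated marker of autophagosomes, averaged 699 ± 50.6 CPM in KO cells and 562 ± 78.7 CPM in WT cells (adjusted p = 0.283 by edgeR). Its relative Map1lc3a averaged 36.2 ± 3.02 CPM in KO cells and 57.2 ± 42.8 CPM in WT cells, with overlapping groups (adjusted p = 0.525 by edgeR), the high WT value being replicate 1. Of 6 ubiquitin-related genes of the same vacuoles none was called by edgeR and 1 had an unadjusted p under 0.05. Trim21, a ubiquitin ligase gene, averaged 11.0 ± 4.43 CPM in KO cells and 24.0 ± 10.5 CPM in WT cells, with overlapping groups (log2 fold change -1.12 with an SE of 0.43; adjusted p = 0.257 by edgeR). Calcoco1 averaged 163 ± 16.9 CPM in KO cells and 129.8 ± 33.2 CPM in WT cells, also with overlapping groups (adjusted p = 0.471 by edgeR).

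Guanylate-binding proteins are larger interferon-induced GTPases that act at the same vacuoles. Of 11 tested genes 3 were called lower, and all 11 had negative log2 fold changes (median -1.36), as had 6897 of all 12720 tested genes. The groups did not overlap for 8, all lower in KO, and 10 had an unadjusted p under 0.05 in the lower direction. Over all tested genes 0.983% were called lower, 11.5% did not overlap in that direction and 9.13% had such a p. Gbp2 averaged 41.6 ± 1.22 CPM in KO cells and 255 ± 77.9 CPM in WT cells (SD, n = 3 each; log2 fold change -2.61 with an SE of 0.24; adjusted p = 0.00508 by edgeR). Gbp8 and Gbp2b had log2 fold changes of -1.90 (SE 0.30) and -1.92 (SE 0.35). As with the Irg genes, the calls of Gm12250, Stat2, Irf7, Socs1, Socs3, Gbp2, Gbp8 and Gbp2b were each lost without KO replicate 1, without KO replicate 3 and with the lung epithelial share as covariate. Those of all but Gbp2 were also lost without WT replicate 1 and without WT replicate 2, and those of Socs1, Socs3 and Gbp2b without KO replicate 2.

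The 8 genes whose profile over the 6 libraries came closest to the mean Irg profile were BC094916, Xaf1, Isg20, Pydc3, Gbp8, Phf11a, Gbp6 and Phf11c. Likeness was the root mean square difference between log2 CPM profiles, each centred on its own mean. It ran from 0.098 for BC094916 to 0.15 for Phf11c, beside a median of 1.08 over the 12713 genes compared. Of the members themselves, Tgtp2 was nearest to the family mean (0.12) and Iigp1 farthest from it (0.69). Xaf1, which encodes an interferon-induced antagonist of an apoptosis inhibitor, averaged 37.4 ± 9.98 CPM in KO cells and 126 ± 32.0 CPM in WT cells, and Isg20, an interferon-induced exonuclease gene, 65.5 ± 19.5 CPM in KO cells and 274 ± 55.2 CPM in WT cells (SD, n = 3 each). Of these 8, edgeR called 7 lower and not Gbp6 (adjusted p = 0.0544). They were picked for their likeness, so the calls are a description.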

How the data were processed

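The table deposited by the authors holds raw counts of reads for each RefSeq transcript and its length, per the file headers. Bowtie2 2.2.6, TopHat2 2.2.1, bcl2fastq and mm10 are listed in the submitters' processing notes. How reads were counted, whether strand was used and how multiply mapping reads were treated is not given in the sources read. Each symbol was represented by its transcript row of highest summed count (31682 rows, 23992 symbols), and 0 per-sample columns were left unused. Low counts were removed by filterByExpr with a minimum count of 10 and a minimum total of 15. The former acts as a CPM cutoff to be met in as many libraries as the smaller group has. Libraries were scaled by TMM and tested with edgeR 4.0.16 (robust quasi-likelihood fit, no covariate) in R 4.3.3. The test was checked on simulated counts for the sign and size of known changes only. Those counts held no differences in cell makeup between libraries. Standard errors are the absolute log2 fold change over the square root of F. Single values per library were compared by exact permutation tests in scipy 1.17.1. Promoters and annotation came from RefSeq and GENCODE M21. Text names the 7 members and Crlf2, up to 4 called genes of each pathway list or else up to 2 of smallest p, and the 8 most similar genes. Gm4951, 9930111J21Rik1, Irgq, Olfr56 and Psme2b were named after their values were seen. Members and lists were chosen with earlier results of these data known. Some genes of the interferon transcription factor and ubiquitin lists are not reported here and were left out of the list counts. The alternatives were other scaling, DESeq2 1.42.0, limma-voom (limma 3.58.1), other filters, other transcript rows, covariates, a replicate block and leaving out each library.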

Additional observations from a re-analysis of the deposited data

How the results depend on the processing

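All 7 members kept a negative log2 fold change and an unadjusted p under 0.05 in all 20 alternatives that refitted the genes (6 features where Tgtp1 and Tgtp2 were merged). The median ran from -1.83 to -1.39. Over the fits that left out 1 library, members called lower numbered 0 to 7 and genes called 4 to 518. Given the lung epithelial share as covariate, edgeR called 0 members and 0 genes (1142 at an unadjusted p under 0.05). With all libraries 221 genes were called, against 863 with DESeq2's test, 134 when transcript rows were summed and 703 with the macrophage share as a covariate. Scaling to pan-T genes moved the median of all genes to -0.38, with members at -1.83, or -1.44 relative to that median. It turned the log2 fold changes of Map1lc3b (-0.019) and Irgq (-0.091), Irgq was also at -0.078 with the lung covariate, and Map1lc3a ran from -0.99 to 0.15 (without WT replicate 1) when 1 library was left out; the cause was not tested. With a replicate block 123 genes and 7 members were called, and the regulatory to effector ratio gave an exact permutation p = 0.25, the smallest that 3 pairs can give. Deviations of same-numbered libraries correlated across genes at 0.084, -0.15 and -0.045. With 3 libraries per group these values cannot settle whether the numbers pair samples. That ratio's log2 difference of 0.24 ran from 0.17 to 0.31 without 1 library, and was 0.025 when transcript rows were summed. Summing counts Ifi47 in 3 rows and Iigp1 in more than 1. Depth limits Iigp1 most, with 57 reads in KO replicate 1.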
